A study of Mus musculus with 8 samples.

Results

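The 180 min sites of STAT3α and STAT3β are the genomic regions listed as bound by tyrosine-phosphorylated STAT3 after 180 min of oncostatin M, in mouse embryonic fibroblasts that carried only 1 of the 2 spliceforms. Sites were sorted by identical chromosome, start and end into those in both 180 min peak lists, those in the STAT3α list alone and those in the STAT3β list alone. This gave 27, 13 and 93 sites, 133 of the 5343 distinct sites of exact position in the whole series. The series held 6 chromatin immunoprecipitation (ChIP-seq) samples, with 0, 30 and 180 min of treatment for each spliceform, and 2 samples of input DNA, which were not used here. All groups were STAT3-/- fibroblasts in which a construct re-expressed STAT3alpha or STAT3beta. All received 1 nM 4-hydroxytamoxifen for at least 48 h to induce the construct and serum-free medium for 16 h. Human recombinant oncostatin M was then given at 10 ng/mL, and the 0 min samples had none. The STAT3-/- label is shared by every group, the labels name 1 inducible line per spliceform, and each list came from reads merged over a sample.

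STAT3 is a latent transcription factor of the JAK-STAT pathway. Oncostatin M can bind a receptor made of OSMR and gp130 (the product of Il6st). JAK kinases then phosphorylate STAT3, and dimers of it bind DNA at palindromic elements near their target genes. Among these targets, Socs3 encodes an inhibitor that shuts the receptor off, so the pathway is known for a strong early peak of activity that then falls. STAT3α carries a C-terminal transactivation domain that the shorter STAT3β lacks.

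A list holds chromosome, start and end of each peak, with no height, fold enrichment or read number. A site missing from a list was therefore not shown to be unbound, and the depth behind a list is unknown. With 1 merged list per group no test between the spliceforms was possible, and the STAT3α and STAT3β lines, their libraries and their list lengths cannot be told apart. Intervals below are 95% exact (Clopper-Pearson) binomial intervals and cover counting over sites only. Positions are on mm9 and count from 1. All 133 sites of the 180 min lists were 400 bp wide. Gene loci on mm9 were taken from general knowledge of that map, to the nearest kb, because no annotation of mm9 was used here. Sites are therefore placed only coarsely, at the start of a gene (within 1 kb of it), inside it, or within 10 kb on either side, and no distance to a gene is printed. The 0 min peaks of rounded position were placed at no gene. The list of 57 genes was drawn up with earlier results of these data known, so its counts are a description and support no theme.

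RefSeq promoters (GRCm38.p6, 250 bases before to 50 bases after the start) are printed for 6 listed genes. In 5 of them a late site of both spliceforms was placed at the start of the gene. The other is Junb, where STAT3β alone had a late site at the start. The STAT3 recognition element TTCNNNGAA, a palindrome that reads the same on both strands, was searched in each, and capitals mark a match. It was held by the Socs3 promoter, 154 bases before the start, and by none of the other 5 printed windows. The stricter form TTCCNGGAA, which is contained in TTCNNNGAA, was in none of the 6.
Socs3 (chromosome 11, minus strand): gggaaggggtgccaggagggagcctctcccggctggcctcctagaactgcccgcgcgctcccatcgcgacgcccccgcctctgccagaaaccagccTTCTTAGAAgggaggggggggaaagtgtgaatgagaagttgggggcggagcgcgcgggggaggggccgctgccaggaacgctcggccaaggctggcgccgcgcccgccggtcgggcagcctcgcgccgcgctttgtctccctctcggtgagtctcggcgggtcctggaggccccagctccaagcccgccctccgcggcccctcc
Stat3 (chromosome 11, minus strand): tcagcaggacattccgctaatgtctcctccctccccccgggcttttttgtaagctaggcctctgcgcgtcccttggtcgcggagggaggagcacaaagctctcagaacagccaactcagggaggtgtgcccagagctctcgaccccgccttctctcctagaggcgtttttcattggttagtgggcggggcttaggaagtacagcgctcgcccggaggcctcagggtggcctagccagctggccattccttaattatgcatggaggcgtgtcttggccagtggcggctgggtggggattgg
Osmr (chromosome 15, minus strand): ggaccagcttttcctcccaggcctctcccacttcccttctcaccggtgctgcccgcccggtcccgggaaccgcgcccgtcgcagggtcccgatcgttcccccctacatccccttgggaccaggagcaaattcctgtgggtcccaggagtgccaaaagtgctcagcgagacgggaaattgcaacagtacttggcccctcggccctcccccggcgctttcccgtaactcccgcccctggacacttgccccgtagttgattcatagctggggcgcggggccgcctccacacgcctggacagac
Il6st (chromosome 13, plus strand): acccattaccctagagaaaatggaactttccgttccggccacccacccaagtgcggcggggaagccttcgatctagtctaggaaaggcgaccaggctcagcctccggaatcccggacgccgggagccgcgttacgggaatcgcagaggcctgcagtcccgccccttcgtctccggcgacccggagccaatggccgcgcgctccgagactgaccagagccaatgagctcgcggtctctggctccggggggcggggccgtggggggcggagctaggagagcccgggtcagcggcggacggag
Csf1 (chromosome 3, minus strand): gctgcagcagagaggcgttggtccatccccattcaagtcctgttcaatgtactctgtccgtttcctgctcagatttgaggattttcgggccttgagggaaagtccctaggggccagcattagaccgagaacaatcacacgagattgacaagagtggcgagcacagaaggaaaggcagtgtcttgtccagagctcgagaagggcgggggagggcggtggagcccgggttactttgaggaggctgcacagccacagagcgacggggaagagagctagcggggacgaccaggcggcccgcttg
Junb (chromosome 8, minus strand): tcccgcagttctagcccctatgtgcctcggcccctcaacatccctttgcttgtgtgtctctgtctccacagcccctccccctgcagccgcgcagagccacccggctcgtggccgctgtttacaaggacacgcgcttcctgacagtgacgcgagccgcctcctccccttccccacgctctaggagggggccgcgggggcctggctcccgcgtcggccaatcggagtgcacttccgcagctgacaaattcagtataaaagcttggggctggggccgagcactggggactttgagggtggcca
Of all 32851 RefSeq promoters in the table, 8.30% held TTCNNNGAA and 1.15% held TTCCNGGAA. The element was in the promoter of 1 of the 10 genes named below that had a late site at the start and a promoter in the table. Sbno2, which had a late site inside the gene and not at its start, held TTCNNNGAA in 2 of its 3 promoters in the table, 1 of which matched TTCCNGGAA. The sequences are of another build than the peaks, so they were not aligned with the 400 bp sites, and the bases under a peak were not read.

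The first comparison asked how the 2 late lists divide. Sites in both lists were 20.3% of the 133 late sites (interval 13.8 to 28.1%), sites in the STAT3α list alone 9.77% (5.31 to 16.1%) and sites in the STAT3β list alone 69.9% (61.4 to 77.6%). The STAT3α list was short and mostly shared: 32.5% of its 40 sites (18.6 to 49.1%) were its own. The STAT3β list was longer and mostly its own, at 77.5% of 120 sites (69.0 to 84.6%). With 40 sites in the STAT3α list, at most 40 of these 120 could be shared. Most of the STAT3β list therefore had to be its own by the list lengths, which the interval does not take into account. Of the 5338 sites listed at 30 min for either spliceform, 0.506% were in both late lists, 0.187% in the STAT3α late list alone and 1.70% in the STAT3β late list alone. The sites missing from 1 list were not slightly shifted copies. None of the 13 STAT3α-alone sites had a STAT3β late site within 100 kb, and the closest was 103 kb away. Of the 93 STAT3β-alone sites, 2 had a STAT3α late site within 100 kb, 1 each at Junb and Socs3.

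The earlier listing of the late sites was then counted in the 3 groups. Of all 5338 sites of 30 min, 42.7% were in both 30 min lists. All 27 sites in both late lists were (lower bound 87.2%). Of the STAT3β-alone sites, 85 of 93 (91.4%, 83.8 to 96.2%) were in both 30 min lists, 6 were in the STAT3β 30 min list alone and 2 in neither. Of the STAT3α-alone sites, 8 of 13 (61.5%, 31.6 to 86.1%) were in both 30 min lists and 3 (23.1%, 5.04 to 53.8%) in neither. The other 2 were in the STAT3β 30 min list alone, so they were listed at 30 min for STAT3β and at 180 min for STAT3α. The 42.7% was taken over sites with a 30 min listing only. Of the 10 STAT3α-alone sites with such a listing, 8 were in both 30 min lists. No late site of any group was in the STAT3α 30 min list alone.

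**Figure D1:**
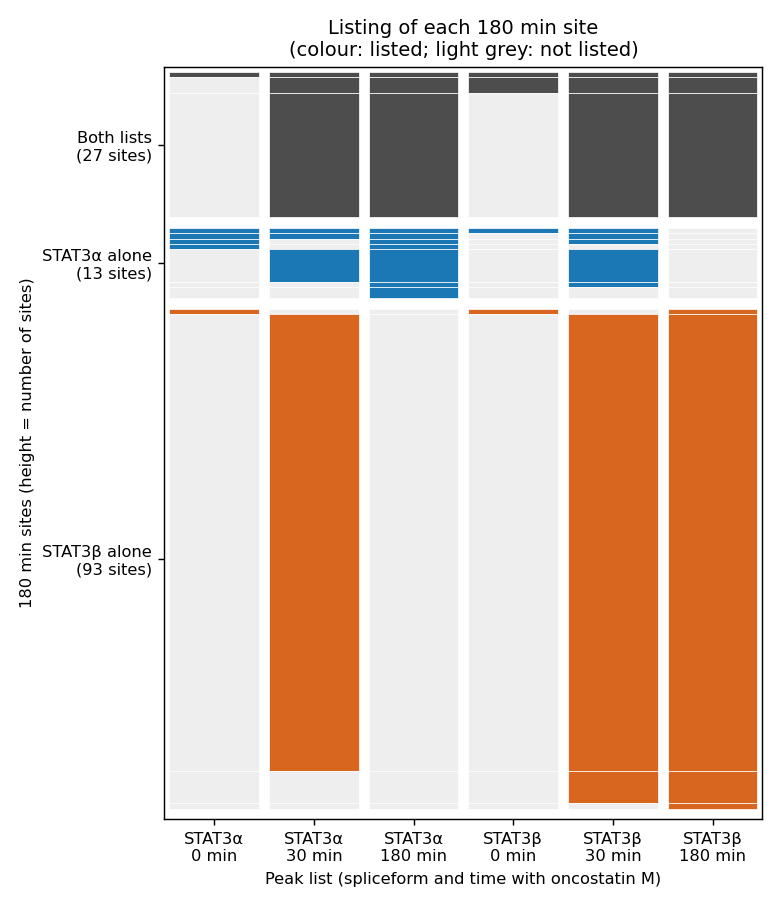
Listing of the 133 late sites in the 6 peak lists. Columns are spliceform and time, the height of each block is the number of sites with that pattern, colour marks listed sites and light grey sites not listed. Most of the 93 STAT3β-alone sites, 85, differ from the 23 common sites without a 0 min listing only in the STAT3α 180 min column.

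Sites already listed without cytokine were few. Of the 5343 distinct sites of the series, 11 (0.206%) were in a 0 min list by exact coordinates, and 9 of these 11 were late sites. Of the STAT3α-alone sites, 4 of 13 (30.8%, 9.09 to 61.4%) were in a 0 min list by exact coordinates, against 4 of 27 common sites (14.8%, 4.19 to 33.7%) and 1 of 93 STAT3β-alone sites (1.08%, 0.0272 to 5.85%). By exact coordinates, the intervals of the STAT3α-alone and STAT3β-alone groups do not overlap, and those of the STAT3α-alone and common groups do. These intervals leave out the rounded 0 min positions given below, which could change them, and they are no test between the spliceforms. Of the 4 STAT3α-alone sites, all were in the STAT3α 0 min list and 1 also in that of STAT3β. Of the 4 common sites, the reverse held: all were in the STAT3β 0 min list and 1 also in that of STAT3α. The 0 min lists also held 6 peaks whose position was rounded to 3 digits. At 101 Mb and 118 Mb on chromosome 11 and at 133 Mb and 149 Mb on chromosome 4, such STAT3β peaks round to the same value as 1, 2, 2 and 1 late sites. Those late sites come from all 3 groups and include the ones at Stat3 and Socs3. However, 30 min sites round to these values as well, 13 and 21 of them on chromosome 11. Whether Stat3 or Socs3 was listed before treatment could not be read from the files.

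The late sites at the 57 listed genes, chosen by role with earlier results of these data known, were described next. Within 10 kb of a listed gene lay 7 of the 27 common sites (25.9%, 11.1 to 46.3%), 1 of the 13 STAT3α-alone sites (7.69%, 0.195 to 36.0%) and 6 of the 93 STAT3β-alone sites (6.45%, 2.4 to 13.5%). Over all 30 min sites of either list the share was 1.57%, and over those in both 30 min lists 2.11%. Of the 57 genes, 41 had a site at 30 min, 8 a STAT3α site at 180 min and 11 a STAT3β site. The genes with a late site for both spliceforms were Stat3, Osmr, Il6st, Socs3, Csf1, Junb and Bcl3. STAT3α alone had a late site at Fosl2, and STAT3β alone at Stat2, Sbno2, Cebpd and Mcl1.

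**Figure D2:**
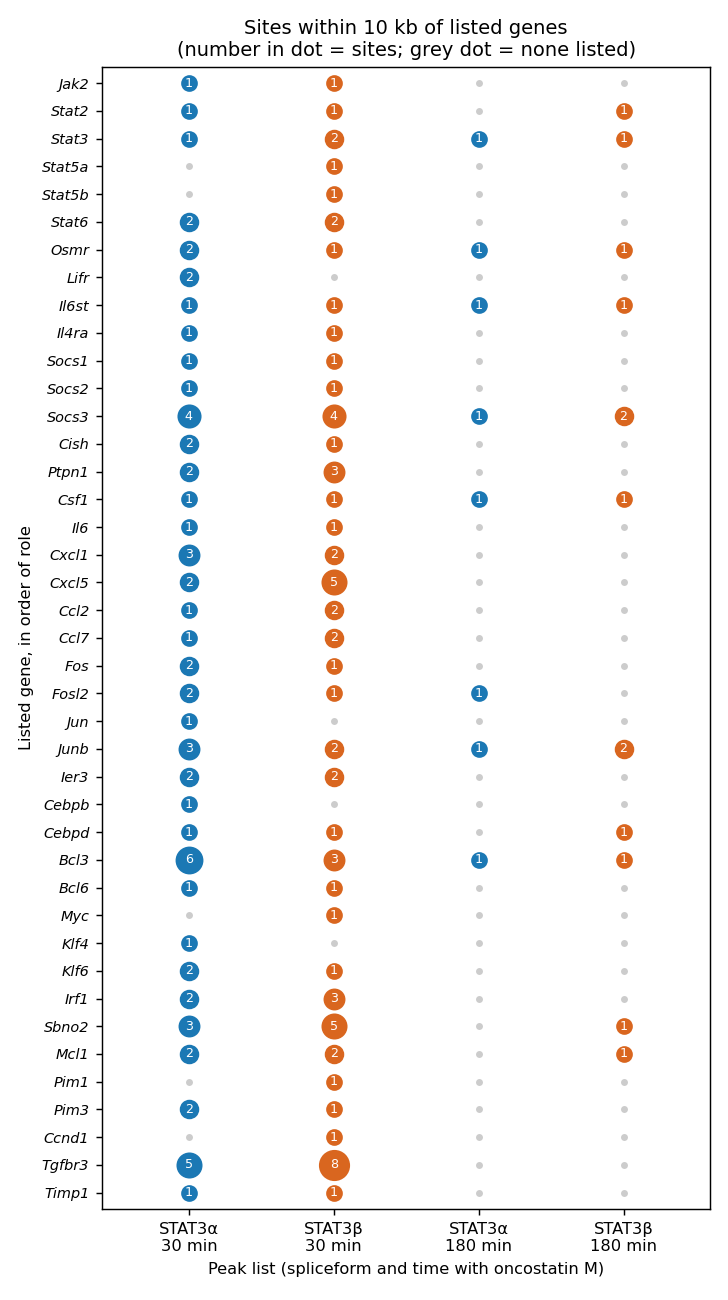
Number of sites within 10 kb of each of the 41 listed genes that had a 30 min site, by spliceform and time. Each dot is 1 peak list, the number in it counts sites and a small grey dot means none listed; at 180 min 8 genes have a STAT3α dot and 11 a STAT3β dot.

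Among the listed receptor genes, Osmr and Il6st had a late site for both spliceforms. Which receptor the human oncostatin M used in these mouse cells was not tested. At Osmr, which encodes the OSMR subunit, the site at chr15:6824175-6824574 lay at the start of the gene. It was missing only for STAT3α at 0 min. A second Osmr site, chr15:6807503-6807902 inside the gene, was in the STAT3α 30 min list only. At Il6st, which encodes the signal-transducing subunit shared by the interleukin-6 family, the only site was chr13:113253967-113254366 at the start, in both lists at 30 and at 180 min. The other listed receptor genes had no late site: Lifr had 2 STAT3α sites at 30 min, Il4ra had 1 site in both 30 min lists, and Il6ra had none at any time.

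Among the signal transducers, STAT3's own gene had a common late site and Stat2 a STAT3β-alone site. At Stat3 the start of the gene carried chr11:100800888-100801287, in both lists at 30 and 180 min. The STAT3β 30 min list had 1 more site inside the gene, which was not listed later. The cells are labelled STAT3-/-, and the lists say nothing about a transcript of this locus. At Stat2, which acts in type I interferon signalling, chr10:127707176-127707575 lay at the start. It was in both lists at 30 min and only in the STAT3β list at 180 min. Jak2, Stat5a, Stat5b and Stat6 had sites at 30 min and none at 180 min, and Jak1 and Tyk2 had none in any list.

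Of the 5 feedback inhibitors, all had sites of both spliceforms at 30 min and Socs3 was the single one with late sites. Its 4 sites were the same in both 30 min lists. At 180 min the site at the start, chr11:117830560-117830959, was in both lists, and the downstream site chr11:117824769-117825168 was in the STAT3β list alone. The 2 late sites are separated by 5.39 kb. The other downstream site and the upstream site, chr11:117840752-117841151, were in neither late list. The promoter of Socs3 printed above holds a TTCNNNGAA match, as did 8.30% of all RefSeq promoters. It was not aligned with the late sites of Socs3. Socs1 and Socs2, which inhibit JAK and growth hormone signalling, had a site at the start at 30 min and none later, as had Cish in the STAT3α list, while Ptpn1, a phosphatase of JAK2, had 3 sites at 30 min, upstream of the gene and inside it.

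The AP-1 genes held both kinds of difference. Junb encodes a subunit of the AP-1 transcription factor. Its site chr8:87500257-87500656, just downstream of the gene, was listed 5 times, missing only for unstimulated STAT3α cells. The site at the start of Junb, chr8:87502518-87502917, 1.86 kb from it, was in both 30 min lists and in the STAT3β late list alone. Junb and Socs3 thus carried the only 2 pairs of late sites within 10 kb of each other. Each pair joined a common site and a STAT3β-alone site. At Fosl2, which encodes another AP-1 subunit, the upstream site chr5:32435435-32435834 was in both 30 min lists and in the STAT3α late list alone. It is the only STAT3α-alone late site at a listed gene. The site at the start of Fosl2 was in the STAT3α 30 min list and in no other. Fos, Jun and Ier3 had 30 min sites and no late site. Fosb, Fosl1, Jund and Egr1 had none within 10 kb in any list.

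The cytokine Csf1 and the nuclear regulator Bcl3 had late sites for both spliceforms. Csf1 encodes macrophage colony-stimulating factor, and its site chr3:107563034-107563433 at the start was in both lists at 30 and 180 min. Of the other 9 cytokine and chemokine genes, 5 had 30 min sites (Il6, Cxcl1, Cxcl5, Ccl2 and Ccl7) and none had a late one. The Cxcl5 locus had 5 sites in the STAT3β 30 min list and 2 in that of STAT3α. Bcl3 encodes an atypical IκB protein that binds NF-κB subunits. It had 6 sites in the STAT3α and 3 in the STAT3β 30 min list, of which a single one, chr7:20401600-20401999 inside the gene, was in the late lists, and it was in both.

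STAT3β-alone late sites also lay at 3 further regulators. Cebpd encodes a C/EBP transcription factor of the acute-phase response, and its start carried chr16:15887096-15887495. Sbno2, a transcriptional regulator downstream of interleukin-10 and STAT3, had 5 sites in the STAT3β and 3 in the STAT3α 30 min list. All lay inside the gene, and 1 of them, chr10:79538039-79538438, was listed late. Mcl1 encodes an anti-apoptotic protein of the BCL2 family, and the site at its start was chr3:95462428-95462827. All 3 late sites were also in both 30 min lists. Tgfbr3 had the most 30 min sites of the listed genes, 10 over both lists, and no late site. Bcl6, Myc, Klf4, Klf6, Irf1, Pim1, Pim3, Ccnd1 and Timp1 had 30 min sites and none at 180 min.

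At the listed genes 48 sites were in both 30 min lists, and 14 of these (29.2%) were late sites. Another 36 sites were in 1 of the 30 min lists, and 0 of these were late sites. Over the whole series, 120 of 2278 sites in both 30 min lists (5.27%) and 8 of 3060 in a single one (0.261%) were late, so the count of 0 is near the share of all such sites and is not a result about these genes. Of the 20 sites in both 30 min lists that lay at the start of a listed gene, 9 were late. The same share over all gene starts could not be given, because no annotation of mm9 was used. The genes were chosen with earlier results of these data known, so this count and the 29.2% are a description only. By the number of 30 min sites at a gene, late sites were found at 4 of the 19 genes with 1 such site, 4 of 13 with 2 and 4 of 9 with 3 or more. A gene with more 30 min sites has more sites that could be listed late. Some neighbouring genes, such as Ccl2 and Ccl7, share their sites, and these counts were not tested.

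3 loci outside the list were named after the positions were seen. The common sites at chr6:108609884-108610283 and chr3:65331908-65332307 lay at the starts of Bhlhe40, a repressor of the circadian system, and of Tiparp, an ADP-ribosyltransferase induced through the aryl hydrocarbon receptor. The STAT3β-alone site chr10:80392301-80392700 lay at the start of Gadd45b, a stress-response gene. All 3 were in both 30 min lists. The common site chr2:167602937-167603336 lay between Cebpb, which encodes a C/EBP factor, and Ptpn1, farther than 50 kb from both. It had 5 other 30 min sites within 50 kb. Cebpb itself had a site at its start in the STAT3α 30 min list and no late site.

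The remaining common sites were given no gene. On chromosome 1 this was chr1:88422734-88423133 and on chromosome 2 chr2:160051121-160051520 and chr2:164258134-164258533. Chromosome 4 had chr4:133369662-133370061, chr4:151236381-151236780 and chr4:151699618-151700017. Single sites were chr5:122608016-122608415, chr6:48791239-48791638 and chr12:73186758-73187157. Chromosome 11 had chr11:74651938-74652337 and chr11:121534294-121534693. Chromosome 15 had chr15:38400117-38400516, also in the STAT3β 0 min list, and chr15:76456294-76456693. The others were chr16:24393710-24394109, chr17:47874911-47875310, chr17:80115076-80115475 and chr19:4988979-4989378. The last is the single site in all 6 lists.

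The 12 STAT3α-alone sites away from listed genes fell into 3 kinds. The first kind, in both 30 min lists and in no 0 min list by exact coordinates, were chr4:132651046-132651445, chr11:48807593-48807992, chr11:98812629-98813028, chr14:45625464-45625863 and chr18:38039758-38040157. The second kind were in a 0 min list. Of these, chr9:21754768-21755167 was in every list except that of STAT3β at 180 min, and chr15:72398960-72399359 was in all STAT3α lists and the STAT3β list of 30 min. The site chr8:14072529-14072928 was in the STAT3α lists of 0 and 180 min and the STAT3β list of 30 min, and chr2:33946114-33946513 was in the STAT3α lists of 0 and 180 min only. The third kind were listed for STAT3α at 180 min without an earlier STAT3α listing. Of these, chr7:6362777-6363176 was in the STAT3β 30 min list, and chr15:76352517-76352916 and chr16:95948993-95949392 were in no other list. The nearest 30 min site was 103 kb away from the former and 1190 kb from the latter.

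Among the STAT3β-alone sites, 8 were missing from the STAT3α 30 min list. The 6 that were in the STAT3β 30 min list lay at chr4:107790959-107791358, chr4:120240626-120241025, chr4:135695969-135696368, chr5:77801989-77802388, chr8:86628601-86629000 and chr10:89207427-89207826. Of these, 3 were on chromosome 4. The site chr15:84659817-84660216 was in both 0 min lists and in neither 30 min list, and chr7:50720917-50721316 was in no other list. The remaining 85 were in both 30 min lists and in no 0 min list by exact coordinates.

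Late sites were found on all 20 chromosomes that carried peaks. Chromosome 11 held 17 late sites, 12.8% of all, against 8.00% of the 30 min sites, and 3.98% of its 30 min sites were listed late. Chromosome 15 held 14 late sites, 10.5% against 6.63%. Chromosome 1 held 2 late sites, 1.5% against 5.73%, and chromosome 6 held 3, 2.26% against 5.13%. Over all 30 min sites 2.40% were listed late. Chromosome 10 had 8 late sites, all STAT3β alone. The only chromosome with more common than STAT3β-alone sites was chromosome 6, with 2 against 1, and chromosomes 1, 3 and 12 had as many of one as of the other. Common sites were on 15 chromosomes and STAT3α-alone sites on 11. Sites of a chromosome are not independent replicates, and these shares were not tested.

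**Figure D3:**
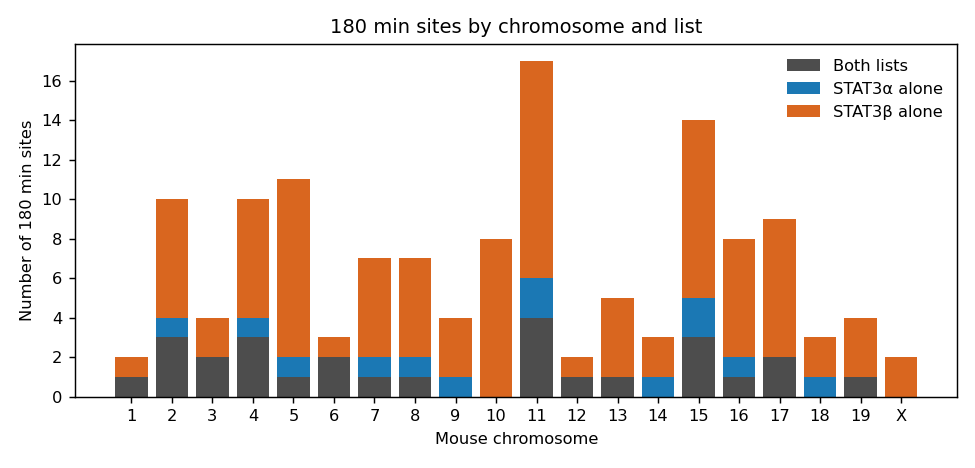
Number of 180 min sites on each chromosome, stacked by group (both lists, STAT3α alone, STAT3β alone). Chromosome 11 has the most, 17, and chromosome 10 has 8 STAT3β-alone sites and no other.

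The surroundings of the late sites were compared through the 30 min sites of either list within 50 kb. At least 1 other such site was near 17 of the 27 common sites (63.0%, 42.4 to 80.6%), 5 of 13 STAT3α-alone sites (38.5%, 13.9 to 68.4%) and 39 of 93 STAT3β-alone sites (41.9%, 31.8 to 52.6%). The share was 53.6% for all 2278 sites in both 30 min lists. The intervals of the 3 groups overlap. Dense neighbourhoods, with 3 or more other 30 min sites, surrounded 8 of 27 common sites (29.6%), 0 of 13 STAT3α-alone sites and 11 of 93 STAT3β-alone sites (11.8%), against 12.9% of sites in both 30 min lists. The densest, with 11 other sites, was at Socs3, followed by Junb with 6. Both common sites and STAT3β-alone sites of these loci share their neighbourhoods. The common site at Il6st lay at the other end, with no 30 min site within 50 kb and the nearest 138 kb away.

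**Figure D4:**
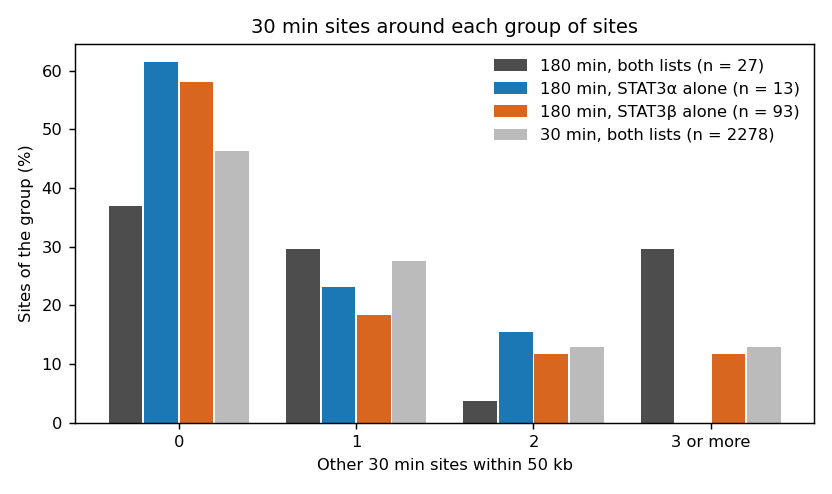
Share of sites (in %) with 0, 1, 2 or 3 and more other 30 min sites within 50 kb, for the 3 groups of 180 min sites and for all sites in both 30 min lists. Common late sites have 3 or more in 29.6% of cases, STAT3α-alone sites in 0 of 13.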

How the data were processed

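Peaks of phosphorylated STAT3 had been called by the authors on the merged reads of each ChIP sample, per the labels, on mm9. Per the submitters' processing notes, the tools were MACS2 2.1.1.20160309, HOMER 4.9, STAR 2.5.0a, Trim Galore 0.4.2 and bedtools. Their roles, the peak threshold and the use of input were not stated in the sources used here. The deposited lists hold positions only, so depth is unknown. The 6 rounded 0 min positions were left out of matching. Sites were matched by identical coordinates and counted with exact binomial intervals, in Python 3.11.15 with scipy 1.17.1 (plots: matplotlib 3.10.9). List matching was checked on sets of known overlap drawn from the 30 min sites. That check covers the counting step only and says nothing about the lists themselves. The members, the gene list and the tests were chosen with earlier results of these data known. Named were all common and STAT3α-alone sites, and STAT3β-alone sites at a listed gene, in a 0 min list or missing from a 30 min list; exceptions are stated. 1 gene of the design list is not reported here. Chromosome and order of the recalled mm9 genes were compared with RefSeq (GRCm38.p6): 60 of 60 genes were on the same chromosome, and 42 of 42 neighbouring pairs in the same order. This cannot show that a recalled gene start is right to within 1 kb, so the places of sites at genes remain unchecked. Of 15 genes with a late site, 13 had a RefSeq promoter. The planned motif search in the peaks needs the mm9 genome and was not run.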

Additional observations from a re-analysis of the deposited data

How the results depend on the processing

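Of 39 alternative values for 12 results, 33 stayed within 1.5 times the count or within the interval of the share. The number of STAT3α-alone sites fell from 13 to 8 with only sites in both 30 min lists, and also to 8 without sites in a 0 min list or at a rounded 0 min position, an alternative chosen after seeing the data; both leave fewer sites. The share of sites with another 30 min site nearby is smaller by construction at 10 kb: 29.6% for common, 7.69% for STAT3α-alone and 22.6% for STAT3β-alone sites. At 100 kb it rose to 59.1% for STAT3β-alone sites. With late sites at most 10 kb apart counted as shared, 91 STAT3β-alone sites were left. Matching by overlap of 1 bp or within 1 kb changed none of the 3 counts. No paired analysis was possible because each group had 1 merged list. The motif search within peaks was not run. The lists hold no measure of strength, so whether a longer list reflects depth was not tested.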
